A study of Mus musculus with 31 samples.

Results

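The 10 genes described here are Ifngr1, a chain of the interferon-gamma receptor, the transcription factor gene Irf1, 4 immunity-related GTPases (Irgm1, Irgm2, Igtp and Ifi47) and 4 guanylate-binding proteins (Gbp2, Gbp3, Gbp5 and Gbp7). They were chosen by symbol and are 10 of the 24411 entries of the deposited count table. RNA-seq had been made from mouse Ly6C-high monocytes in 3 groups of 3 libraries. The healthy blood group came from mice without a tumor, the LLC blood group from mice carrying a Lewis lung carcinoma under the skin (LLC, a mouse lung cancer line grown by transplantation), and the LLC tumor group from the tumors themselves. The mice of all 3 groups were C57BL/6J, no engineered allele or drug is named in the labels, and their age is not given there. All cells had passed the same sort for CD11b and high Ly6C, without Ly6G or MHC-II. The labels do not say which libraries came from separate or from pooled mice, so the p-values measure the spread between these libraries, which may be technical.

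Interferon-gamma is made mainly by natural killer (NK) and T cells. It binds a receptor built from Ifngr1 and Ifngr2, the kinases Jak1 and Jak2 pass the signal on, and it reaches the nucleus at GAS elements, for instance at Irf1. The Irf1 protein in turn binds interferon-stimulated response elements (ISRE), and many genes are switched on through both. Among the strongest targets in mouse macrophages and monocytes are the immunity-related GTPases (IRGs) and guanylate-binding proteins (GBPs), which gather on the vacuoles of intracellular bacteria and parasites and help break them open. Irgm1, Irgm2 and Igtp (also called Irgm3) sit on the cell's own membranes and hold the effector IRGs inactive there.

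The GTPase genes lie in clusters. In RefSeq's GRCm38.p6 annotation, Gbp5, Gbp7, Gbp3 and Gbp2 stand in this order within 141.1 kb of chromosome 3, from 142496934 to 142638008, with Gbp2b between the last pair. Igtp (58199556 to 58207592) and Irgm2 (58214977 to 58222783) are next to each other on chromosome 11, and Gm12250 (58183843 to 58190198), another IRG gene, precedes them. Irgm1 (48865245 to 48871420) and Ifi47 (49076587 to 49096987) lie in a separate stretch of chromosome 11, within 231.7 kb, and Irf1 (53770014 to 53778374) lies between both IRG stretches. Ifngr1 is on chromosome 10, from 19591949 to 19610229, with no other member beside it.

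Promoter windows from RefSeq, running from 250 bases before to 50 bases after each annotated start, matched all 10 genes, with 12 windows in total because Gbp3 and Irf1 have more than 1 start. They were searched for the GAS letters TTCNNNGAA, which read the same on both strands, and on both strands for the ISRE core, GAAA followed after any 2 bases by a second GAAA. ISRE core matches may overlap each other. A GAS match was found for 5 of the 10 genes and an ISRE core match for 7, all of them GTPase genes, and 4 genes held both. Of all 27025 genes with such windows (32851 windows), 9.55% held the GAS letters, 3.99% the ISRE core and 0.54% both in 1 window. The stretches below are given 5′ to 3′ on the gene's strand, with the matched letters in capitals, because they show which element each member carries.
Irf1, chr11:53769912-53769944, plus strand: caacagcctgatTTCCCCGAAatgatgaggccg
Irgm1, chr11:48871423-48871462, minus strand: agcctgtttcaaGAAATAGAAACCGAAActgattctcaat
Irgm2, chr11:58214890-58214934, plus strand: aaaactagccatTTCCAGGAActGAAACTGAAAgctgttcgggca
Igtp, chr11:58199499-58199543, plus strand: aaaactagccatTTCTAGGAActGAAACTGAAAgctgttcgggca
Gbp2, chr3:142620592-142620625, plus strand: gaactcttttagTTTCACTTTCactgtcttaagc
Gbp3, chr3:142559987-142560026, plus strand: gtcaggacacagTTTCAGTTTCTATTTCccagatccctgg
Gbp5, chr3:142496757-142496790, plus strand: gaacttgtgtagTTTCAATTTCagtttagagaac
Gbp7, chr3:142530271-142530304, plus strand: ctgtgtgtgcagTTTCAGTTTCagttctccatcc
Gbp7, chr3:142530218-142530269, plus strand: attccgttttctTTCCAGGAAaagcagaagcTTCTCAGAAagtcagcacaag
The Irgm2 and Igtp stretches are 45 bases long each and differ at 1 base, and both hold a GAS match followed, after the bases ct, by an ISRE core match. Gbp5 also held 2 GAS matches and Gbp7 2, while Gbp2, Gbp3 and Irgm1 held the ISRE core without a GAS match. Irf1 held a GAS match alone. No match was found in the windows of Ifi47 and Ifngr1, which says only that these letters are not in those windows.

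**Figure D1:**
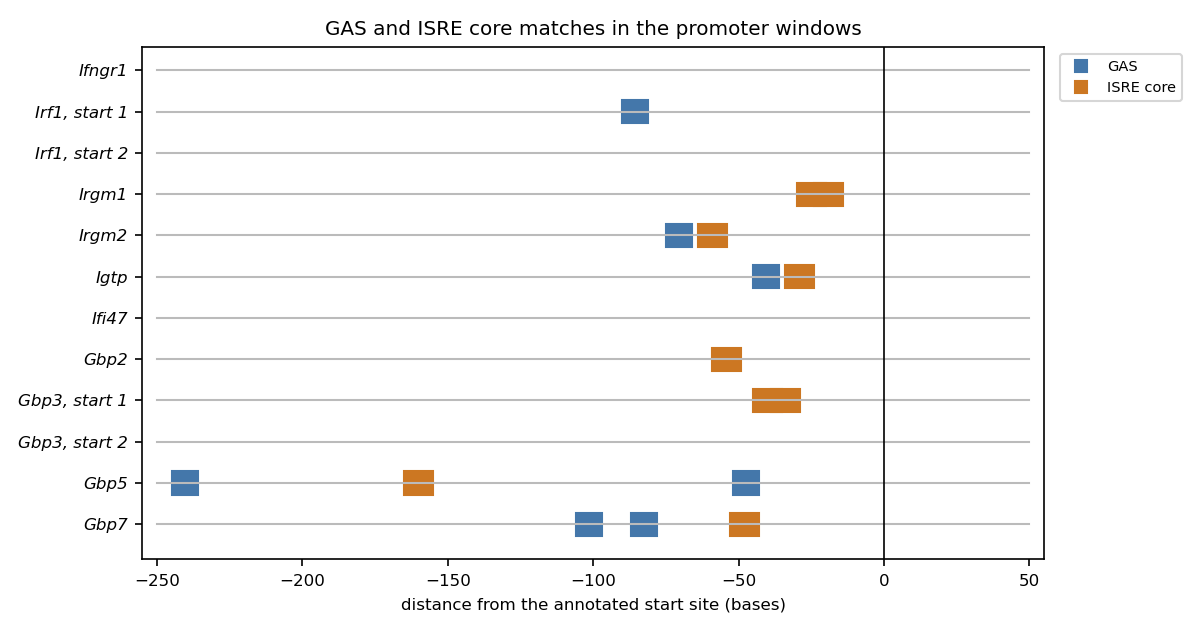
Matches to the GAS letters (blue) and the ISRE core (orange) in the RefSeq promoter windows of the 10 genes, by distance in bases from the annotated start, with 1 line per window. 4 genes (Gbp5, Gbp7, Irgm2 and Igtp) hold both kinds of match, and the windows of Ifi47 and Ifngr1 hold none.

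Library totals ran from 10457492 to 20706412 counts, and 3 counts corresponded to 0.145 to 0.287 CPM (a counts-per-million value, scaled by the library's total), so all 10 genes were far above the counting limit in every library. The monocyte genes Ccr2, Csf1r and Lyz2 were present throughout, and Ly6c2, which encodes a Ly6C protein, lay at 1571 to 1728 CPM in healthy blood, 1099 to 1237 CPM in LLC blood and 272 to 473 CPM in LLC tumor. Markers of other cells were also found. The summed level of 9 NK cell markers was 200 to 484 CPM in healthy blood, 27.5 to 50.2 CPM in LLC blood and 1.56 to 4.43 CPM in LLC tumor. A list of 13 tumor cell, fibroblast and endothelial genes summed to 19.4 to 29.9 CPM in healthy blood and to 985, 3446 and 3821 CPM in LLC tumor, while LLC blood 1 held 419.9 CPM of it against 17.2 and 16.9 CPM in the other LLC blood libraries. The collagen gene Col3a1 alone made up 713, 2801 and 3099 CPM of the sums in LLC tumor 1 to 3. Ly6g was among the markers listed, but no entry of the counts was matched to it, so its level is not given. LLC tumor 1 stood apart from the other tumor libraries across all genes, with a chi-square per gene of 48.4 and 38.0 against them, compared with 6.93 between the other pair.

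CPM values use the library total, whereas log2 fold changes come from an edgeR quasi-likelihood fit of all 9 libraries with TMM scaling, so the ratio of mean CPM values and the fitted fold change can differ. A gene was called changed at a Benjamini-Hochberg adjusted p under 0.05 over the 12337 genes tested, and all 10 members were among them. CPM values are not scaled by length, so each gene is compared only with itself across libraries. The deposited counts of Irgm2, Igtp, Ifi47, Gbp3 and Gbp7 were not whole in all 9 libraries and those of Gbp2 in 8, as estimated counts are where reads fit several related genes, and their levels are uncertain to that extent. Gbp5 had whole counts throughout, and Ifngr1, Irf1 and Irgm1 in 8 libraries.

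Ifngr1 (ENSMUSG00000020009), which encodes the ligand-binding chain of the receptor, differed by less than the spread between both kinds of blood and was lower in every tumor library. It was measured at 771, 709.75 and 788 CPM in healthy blood 1 to 3, at 736, 741 and 735 CPM in LLC blood 1 to 3, and at 346, 308 and 332 CPM in LLC tumor 1 to 3. The blood groups overlapped, and all 3 tumor libraries lay below all 6 blood libraries. The group means were 756 ± 41.0, 738 ± 3.08 and 329 ± 18.9 CPM (SD, n = 3 each). Between the blood groups the log2 fold change was -0.06 ± 0.12 (SE; 95% interval -0.34 to 0.21; adjusted p = 0.753). From LLC blood to LLC tumor Ifngr1 fell by 0.95 on the log2 scale (SE 0.12, adjusted p = 0.000133), to 51.7% of its LLC blood level. In bulk RNA of sorted cells, fewer cells with a transcript and less of it per cell cannot be told apart, here and in what follows.

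Irf1 (ENSMUSG00000018899), the transcription factor between the receptor and the GTPase genes, stood in the order healthy blood, LLC blood, LLC tumor with no overlap between any pair of groups. Its levels were 269.5, 314 and 289.5 CPM in healthy blood 1 to 3, 207, 173 and 187 CPM in LLC blood 1 to 3, and 117, 61.1 and 84.8 CPM in LLC tumor 1 to 3. The means were 291 ± 22.4, 189 ± 17.1 and 87.7 ± 28.1 CPM (SD, n = 3 each). The blood difference of -0.65 ± 0.25 (log2 ± SE) did not pass the threshold (adjusted p = 0.0942). The tumor difference did: Irf1 fell by 0.87 against LLC blood (log2, SE 0.26, adjusted p = 0.0150) and by 1.52 against healthy blood (SE 0.26, adjusted p = 0.000650). Without LLC tumor 3 the first of these was -0.79 with an adjusted p of 0.0535.

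Irgm1 (ENSMUSG00000046879), a regulatory IRG of host membranes, followed the same order. It was measured at 198, 219 and 191 CPM in healthy blood 1 to 3, 137, 131 and 138 CPM in LLC blood 1 to 3, and 58.7, 32.4 and 46.7 CPM in LLC tumor 1 to 3, and no pair of groups overlapped. The blood difference was -0.61 ± 0.22 (log2 ± SE; adjusted p = 0.0773) and was not called. From LLC blood to LLC tumor Irgm1 fell by 1.33 (log2, SE 0.23, adjusted p = 0.000813).

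Irgm2 (ENSMUSG00000069874), the neighbour of Igtp, showed the largest tumor difference of the 10 genes. Its levels were 103, 124 and 91.5 CPM in healthy blood 1 to 3 and 79.9, 80.1 and 91.7 CPM in LLC blood 1 to 3, so the lowest healthy and the highest LLC blood library overlapped. In LLC tumor 1 to 3 it was at 17.6, 14.7 and 18.9 CPM, far below every blood library. The blood difference was -0.37 ± 0.15 (log2 ± SE; adjusted p = 0.108). In the tumor Irgm2 fell by 2.09 against LLC blood (log2, SE 0.16, adjusted p = 5.6e-06), to 23.5% of that level.

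Igtp (ENSMUSG00000078853), the third regulatory IRG, differed less in the tumor. It was at 90.4, 122 and 93.9 CPM in healthy blood 1 to 3, 59.5, 60.8 and 62.2 CPM in LLC blood 1 to 3, and 49.8, 23.6 and 34.5 CPM in LLC tumor 1 to 3. No pair of groups overlapped in these CPM values, which are scaled by the library total, with LLC tumor 1 closest to LLC blood. The TMM factors used in the fit were 0.798 for LLC tumor 1 and 1.042 to 1.067 for the LLC blood libraries. Scaled by these as well, LLC tumor 1 would no longer lie below LLC blood. Neither step passed the threshold: the blood difference was -0.77 ± 0.28 (log2 ± SE; adjusted p = 0.0742) and that from LLC blood to LLC tumor -0.52 ± 0.28 (adjusted p = 0.140), or -0.94 and called without LLC tumor 1. Against healthy blood, Igtp fell by 1.29 in the tumor (log2, SE 0.29, adjusted p = 0.00300).

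Ifi47 (ENSMUSG00000078920) encodes an IRG of the other kind, one that moves to pathogen vacuoles. It was measured at 210.2, 275 and 235 CPM in healthy blood 1 to 3, 124, 119 and 114 CPM in LLC blood 1 to 3, and 73.3, 27.7 and 40.2 CPM in LLC tumor 1 to 3, again without overlap. Its blood difference of -1.04 ± 0.34 (log2 ± SE) was the largest of the 10 genes and missed the threshold narrowly (adjusted p = 0.0522). From LLC blood to LLC tumor it fell by 1.08 (log2, SE 0.35, adjusted p = 0.0217), and without LLC tumor 3 this was -0.93 with an adjusted p of 0.0765. Against healthy blood the tumor level was 23.0% (log2 fold change -2.12 ± 0.35, adjusted p = 0.000553).

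Of the 4 GBPs, 1 was called in the tumor. Gbp3 (ENSMUSG00000028268) was at 110.5, 146 and 117 CPM in healthy blood 1 to 3 and at 117, 110.3 and 119.9 CPM in LLC blood 1 to 3, and these groups overlapped (log2 fold change -0.13 ± 0.27, adjusted p = 0.765). In LLC tumor 1 to 3 it was at 61.6, 31.0 and 40.9 CPM, below all blood libraries, and it fell by 1.14 against LLC blood (log2, SE 0.27, adjusted p = 0.00536). The other 3 were not called in that comparison.

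Gbp2 (ENSMUSG00000028270), which is recruited to parasite vacuoles, had the widest spread. It was at 85.3, 179.9 and 115 CPM in healthy blood 1 to 3, 79.6, 74.4 and 76.4 CPM in LLC blood 1 to 3, and 175, 68.4 and 80.9 CPM in LLC tumor 1 to 3. A single library, healthy blood 2 or LLC tumor 1, was at about the same high level in each of the outer groups, and the LLC blood libraries lay within a narrow range below all healthy ones. The blood difference was -0.75 ± 0.41 (log2 ± SE; adjusted p = 0.221), or -0.47 without healthy blood 2. From LLC blood to LLC tumor it was 0.76 ± 0.41 (adjusted p = 0.140), but 0.09 without LLC tumor 1 and 1.05 (adjusted p = 0.0455) without LLC tumor 2.

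Gbp5 (ENSMUSG00000105504), known for its part in inflammasome activation, was at 37.9, 65.0 and 40.8 CPM in healthy blood 1 to 3, 34.6, 37.6 and 39.9 CPM in LLC blood 1 to 3, and 43.6, 18.8 and 28.3 CPM in LLC tumor 1 to 3. All 3 groups overlapped, and the log2 fold changes were -0.38 ± 0.34 (SE; adjusted p = 0.450) in blood and -0.06 ± 0.34 (95% interval -0.83 to 0.71; adjusted p = 0.887) from LLC blood to tumor. The sign of the latter depended on the tumor library left out.

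Gbp7 (ENSMUSG00000040253) was the member with a higher mean in LLC blood than in healthy blood. It was at 49.6, 68.6 and 58.1 CPM in healthy blood 1 to 3, 72.6, 101 and 86.8 CPM in LLC blood 1 to 3, and 80.7, 62.6 and 70.6 CPM in LLC tumor 1 to 3. The blood groups did not overlap, while the tumor group overlapped both. The blood difference of 0.54 ± 0.19 (log2 ± SE; adjusted p = 0.0710) was not called, nor was that from LLC blood to tumor, at -0.07 ± 0.19 (95% interval -0.49 to 0.36; adjusted p = 0.785).

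**Figure D2:**
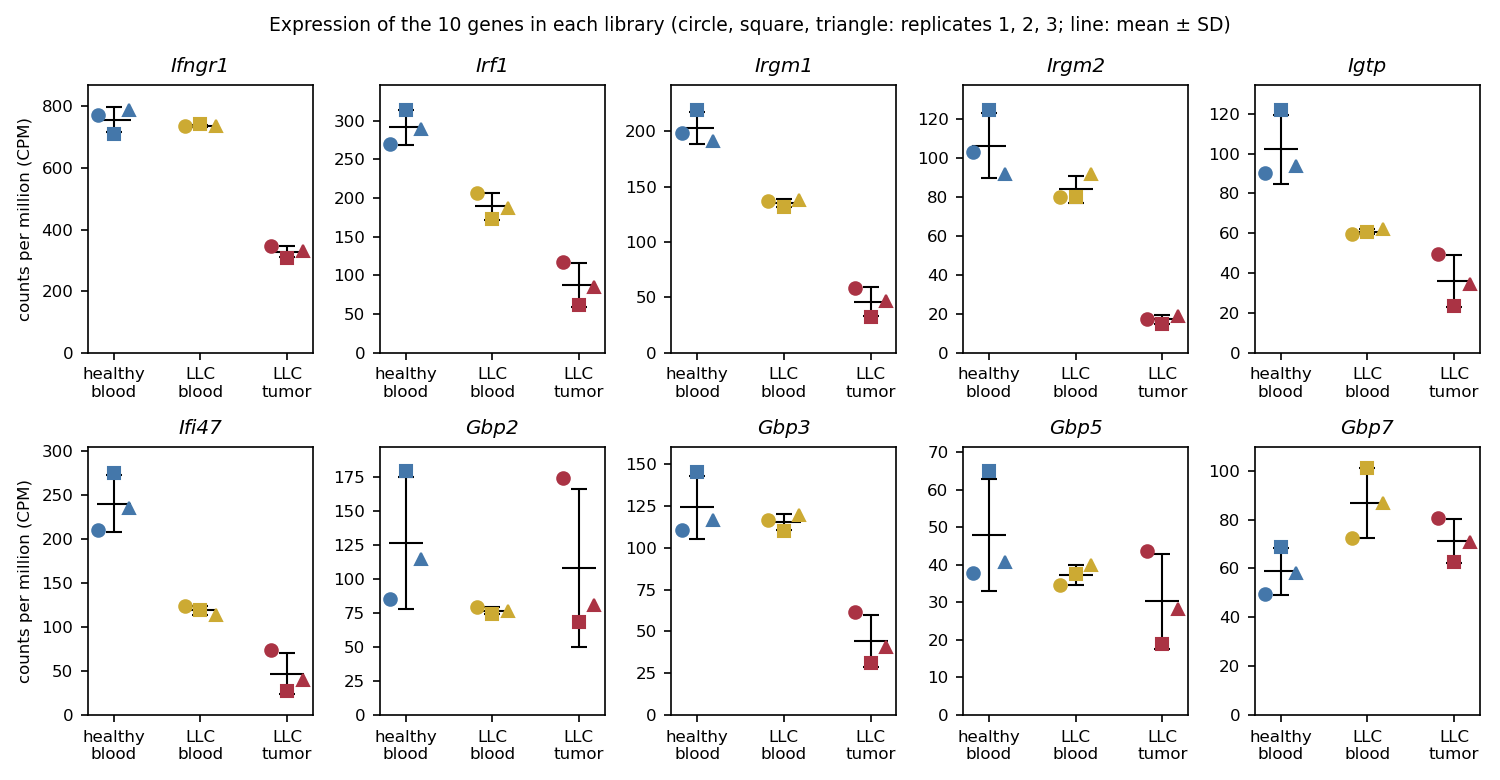
CPM of the 10 genes, 1 panel each, in the 3 libraries of healthy blood, LLC blood and LLC tumor (symbols are replicates 1 to 3, the line and bars the mean ± SD, axes linear from 0). In CPM by library total, the tumor libraries of Ifngr1, Irgm1, Irgm2, Ifi47, Irf1, Igtp and Gbp3 all lie below the LLC blood libraries. Those of Gbp2, Gbp5 and Gbp7 overlap them.

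Counted over the 10 genes, 9 had a lower and 1 a higher fitted level in LLC blood than in healthy blood, and none was called, against 23.6% of all genes tested (14% higher, 9.61% lower). At an unadjusted p under 0.05 there were 6 (5 lower, 1 higher), against 4536 of the 12337 genes tested (2072 lower, 2464 higher). Without overlap between the groups, 5 genes were lower and 1 higher, against 23.8% lower and 27.5% higher among all genes. The median log2 fold change was -0.50 for the 10 genes and -0.01 for all genes. DESeq2 called 5 of the 10 genes, 1 higher and 4 lower, and 3391 genes in all. With limma-voom and quality weights these counts were 7, 1 higher and 6 lower, and 5884 in all. The edgeR count was 7 without LLC tumor 1 (5064 genes in all) and 5 without LLC tumor 2 (3133 in all). Neither library belongs to the groups compared, but the fit takes each gene's spread from all 9 libraries together. With only the 6 blood libraries fitted, 7 members were called, and 4889 genes in all.

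In LLC tumor against LLC blood, 6 of the 10 genes were called lower (Irgm2, Irgm1, Gbp3, Ifi47, Ifngr1 and Irf1) and none higher, where 61.3% of all genes were called, 31.7% lower and 29.6% higher. In CPM by library total, the groups did not overlap for 7 genes, all lower, against 68.3% of all genes in either direction and 44.8% lower. Igtp was among the 7, and its separation depended on that scaling. The median log2 fold change was -0.91, beside -0.03 for all genes. With library totals in place of TMM scaling the median of all genes became -0.23, and the 6 genes were still called lower under that scaling.

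The comparison of LLC tumor with healthy blood shares its libraries with the other comparisons and is given for completeness. Here 7 of the 10 genes were called lower, the 6 above and Igtp, where 66.5% of all genes were called (33% lower, 33.5% higher). The same 7 were lower without overlap between the groups and none was higher, against 43.7% lower and 26.9% higher among all genes. They were called lower under all 18 alternatives. Irgm2 was at 18.2% of its healthy blood level, Irgm1 at 26.1%, Irf1 at 34.9%, Gbp3 at 41.5% and Ifngr1 at 49.5%. Gbp7 was at 139% (log2 fold change 0.47 ± 0.19, adjusted p = 0.0526) and was not called, and Gbp2 at 101% (0.01 ± 0.41, adjusted p = 0.988), or -0.71 on the log2 scale (adjusted p = 0.0299) without LLC tumor 1.

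**Figure D3:**
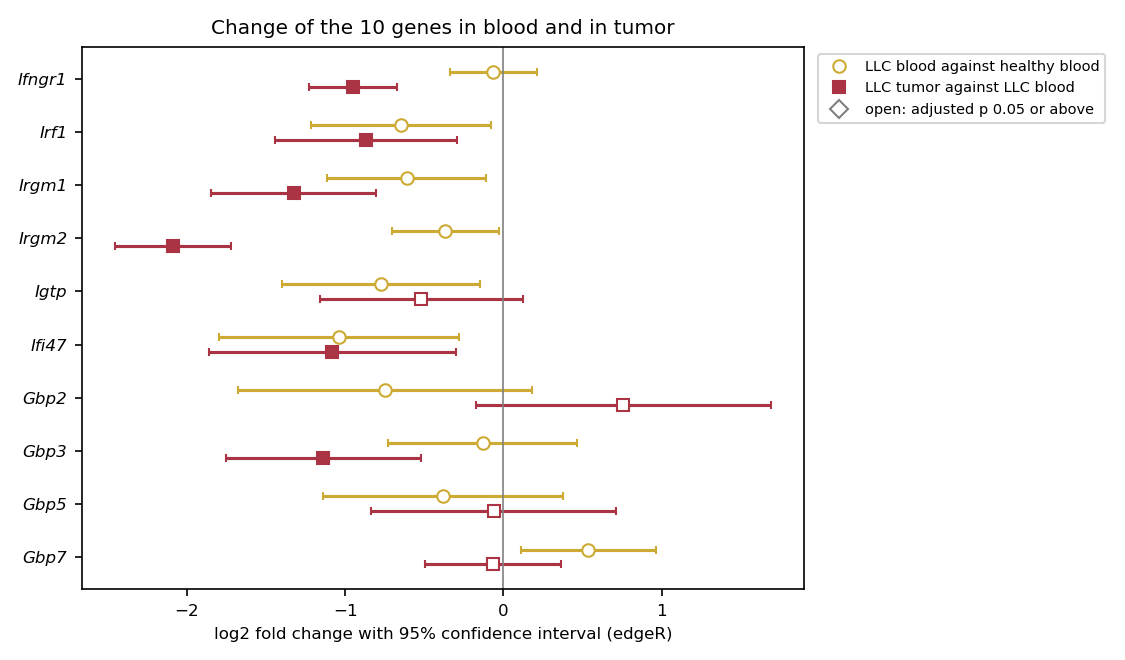
Log2 fold changes of the 10 genes with their 95% confidence intervals from edgeR, for LLC blood against healthy blood (circles) and LLC tumor against LLC blood (squares); filled symbols passed an adjusted p of 0.05. None of the circles is filled, and the 6 filled squares, from -0.87 for Irf1 to -2.09 for Irgm2, are all below 0.

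Ratios between members within a library do not depend on how libraries are scaled to each other, and being ratios of counts, not of levels per length, they are read only for their change between groups. The neighbours Irgm2 and Igtp, whose promoter stretches differ at 1 base, had another ratio in the tumor than in blood. It was 1.14, 1.02 and 0.974 in healthy blood 1 to 3, 1.34, 1.32 and 1.48 in LLC blood 1 to 3, and 0.353, 0.625 and 0.549 in LLC tumor 1 to 3. No pair of groups overlapped. Both genes had counts that were not whole in all 9 libraries, so their ratio also depends on how reads that fit several genes were divided. Gm12250, which precedes them and encodes the effector IRG known as Irgb10, had whole counts throughout, and the ratio of Irgm2 to it was 1.83 to 1.99 in healthy blood, 1.39 to 1.43 in LLC blood and 1.23 to 2.10 in LLC tumor. The ratio of Igtp to Gm12250 was 1.741 to 1.897 in healthy blood, 0.951 to 1.07 in LLC blood and 2.40 to 3.49 in LLC tumor, without overlap.

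The 4 IRGs summed to 652 ± 77.0 CPM in healthy blood, 399 ± 7.54 CPM in LLC blood and 146 ± 50.7 CPM in LLC tumor (SD, n = 3 each). The 4 GBPs summed to 358 ± 91.0, 317 ± 11.4 and 254 ± 94.5 CPM in the same order, with overlapping groups. Their ratio, IRG to GBP, was 2.13, 1.61 and 1.85 in healthy blood 1 to 3, 1.32, 1.21 and 1.26 in LLC blood 1 to 3, and 0.553, 0.545 and 0.636 in LLC tumor 1 to 3. It separated the 3 groups without overlap even though healthy blood 2 and LLC tumor 1 were high for both families. Within the GBPs, the ratio of Gbp2 to Gbp3 was 0.772 to 1.23 in healthy blood, 0.638 to 0.683 in LLC blood and 1.98 to 2.84 in LLC tumor. These ratios were not tested: with 3 libraries against 3 an exact permutation test cannot go below p = 0.1.

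**Figure D4:**
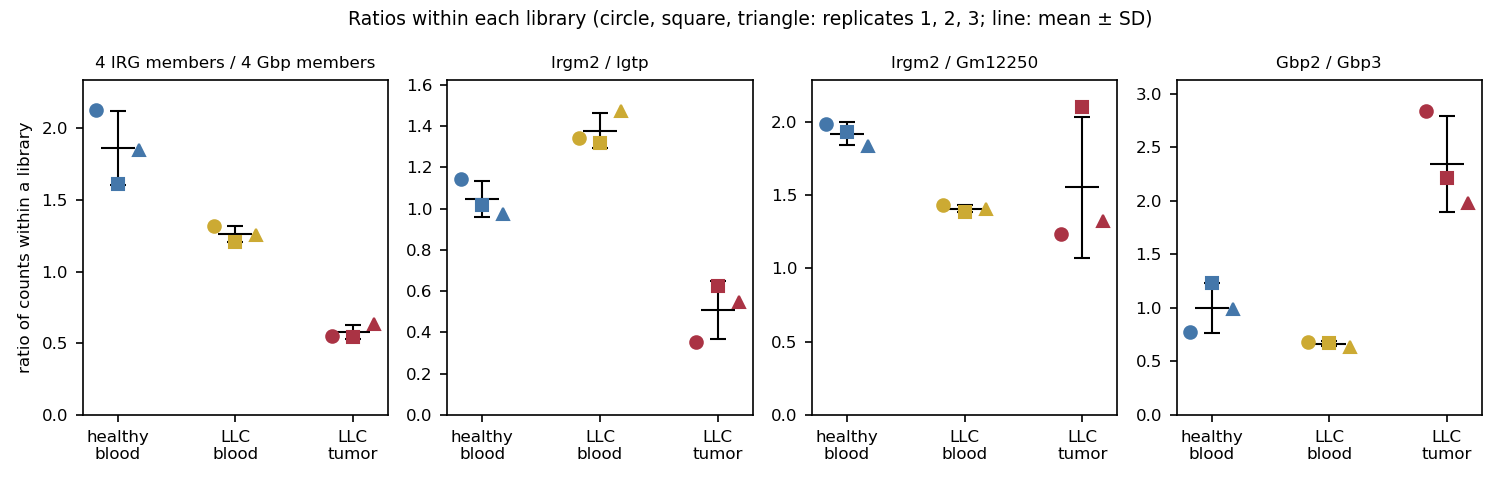
Ratios of counts within each library, 1 panel per ratio, by group (symbols are replicates 1 to 3, the line and bars the mean ± SD, axes from 0). The Irgm2 to Igtp ratio lies at 0.974 to 1.14 in healthy blood, 1.32 to 1.48 in LLC blood and 0.353 to 0.625 in LLC tumor.

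The rest of the pathway moved in several directions. Interferon-gamma itself, Ifng, had 11, 22 and 46 counts in healthy blood 1 to 3, 2 in each LLC blood library and 0, 3 and 1 in LLC tumor 1 to 3. The fit called it lower in LLC blood (adjusted p = 0.00744), and no fold change is given because the LLC blood libraries lay under 3 counts. In healthy blood 1 to 3 the NK cell markers summed to 200, 312 and 484 CPM and the T cell markers to 39.2, 107 and 169 CPM. Both sums were lower in LLC blood, at 27.5 to 50.2 and 4.29 to 7.08 CPM. Which cells held the Ifng transcripts was not tested. Ifngr2, the second receptor chain, had mean levels of 252 ± 17.9 (healthy blood), 208 ± 7.27 (LLC blood) and 105 ± 6.87 CPM (LLC tumor; SD, n = 3 each) and fell by 0.78 from LLC blood to tumor (log2, SE 0.12, adjusted p = 0.000411). In blood it did not pass the threshold (log2 fold change -0.31 ± 0.12, SE; adjusted p = 0.0962).

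The kinase genes had other patterns. Jak1 was at 301 ± 21.1, 361 ± 14.9 and 352 ± 6.41 CPM and was not called between neighbouring groups. Jak2 was at 122 ± 3.35, 144 ± 14.4 and 296 ± 9.76 CPM and rose by 1.25 from LLC blood to tumor (log2, SE 0.12, adjusted p = 1.94e-05). Of the feedback inhibitors, Socs1, which blocks the Jak kinases, fell by 1.44 in LLC blood (SE 0.30, adjusted p = 0.00875) and rose by 2.29 in the tumor (SE 0.30, adjusted p = 0.000154), at 5.49 ± 1.10, 2.06 ± 0.204 and 8.59 ± 2.32 CPM. Socs3, better known as an inhibitor of interleukin-6-type signals, rose by 1.26 in LLC blood (SE 0.16, adjusted p = 0.000779), from 98.7 ± 13.0 to 241 ± 46.6 CPM, and rose further in the tumor, to 589 ± 4.82 CPM (adjusted p = 3.35e-05). Ptpn6, the phosphatase SHP-1, fell by 1.28 in the tumor (SE 0.11, adjusted p = 9.62e-06). Of the 11 receptor and signalling genes, 1 was called higher (Socs3) and 2 lower (Socs1 and Ifng) in LLC blood, and 4 higher and 5 lower in the tumor against LLC blood. Among all genes tested, 14% were called higher and 9.61% lower in LLC blood, and 29.6% higher and 31.7% lower in the tumor.

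The list of regulators beside Irf1 held 10 genes: 7 interferon regulatory factors, the transactivators Ciita and Nlrc5, and Batf2. In LLC blood, 2 were lower (Irf3 and Batf2) and none higher, and in the tumor 7 were lower and none higher, with a median of -0.71. The shares called lower among all genes were 9.61% in LLC blood and 31.7% in the tumor. Irf4 was at 105 ± 8.14, 71.7 ± 3.49 and 6.01 ± 2.07 CPM and fell by 3.36 from LLC blood to tumor (log2, SE 0.24, adjusted p = 3.54e-06). Ciita, the master regulator of MHC class II genes, fell by 2.10 (SE 0.23, adjusted p = 4.14e-05) and Irf9, a factor of the type I interferon response, by 0.94 (SE 0.17, adjusted p = 0.000894). In blood, Irf3 fell by 0.28 (SE 0.08, adjusted p = 0.0280), a call that was lost with library totals and without healthy blood 1, healthy blood 3, LLC blood 2 or LLC blood 3. Batf2, a transcription factor that partners Irf1, is given because it was called, at 7.17 ± 1.13 and 3.75 ± 1.04 CPM, and was picked after its values were seen. It fell by 0.97 (SE 0.26, adjusted p = 0.0252), a call lost without healthy blood 2, healthy blood 3, LLC blood 2 or LLC blood 3.

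Of 19 further interferon-inducible GTPase genes, 15 were tested, and they were called in both directions. In LLC blood, 2 were higher and 6 lower (median -0.72), and in the tumor 5 were higher and 5 lower (median -0.02). Of all genes tested, 23.6% were called in LLC blood (14% higher, 9.61% lower) and 61.3% in the tumor (29.6% higher, 31.7% lower). Tgtp2, the neighbour of Ifi47 and an effector IRG, fell by 2.37 in LLC blood (log2, SE 0.47, adjusted p = 0.00685), from 96.6 ± 23.8 to 19.1 ± 3.74 CPM. Gvin1, a very large GTPase, rose from 300.1 ± 73.9 to 1029 ± 41.5 CPM in LLC blood (1.75, SE 0.20, adjusted p = 0.000513) and fell to 221 ± 38.9 CPM in the tumor (-2.01, SE 0.20, adjusted p = 2.70e-05). The predicted GTPase gene 9930111J21Rik1 did likewise, at 25.0 ± 3.15, 242 ± 27.1 and 32.6 ± 2.01 CPM, as it rose by 3.25 (log2, SE 0.13, adjusted p = 6.28e-06) and fell by 2.69 (SE 0.13, adjusted p = 4.20e-07). Counts of these 3 genes were divided with other genes in all libraries, so their levels are uncertain. Gm12250, with whole counts, fell by 2.11 in the tumor (SE 0.27, adjusted p = 0.000126), from 59.6 ± 5.09 to 11.9 ± 4.22 CPM. Its difference from Igtp was not tested.

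The 4 GBP genes tested on chromosome 5 were looked at after their values were seen. Gbp4 fell by 1.99 in LLC blood (log2, SE 0.40, adjusted p = 0.00749), from 21.1 ± 9.71 to 5.37 ± 0.965 CPM, and rose by 2.33 in the tumor (SE 0.41, adjusted p = 0.000804), to 23.2 ± 7.75 CPM. Gbp6 fell by 2.23 and rose by 1.55 (adjusted p = 0.00460 and 0.00899), and Gbp8 fell by 1.80 and rose by 1.91 (adjusted p = 0.00836 and 0.00174). Gbp9, at 79.0 ± 8.31, 74.8 ± 2.52 and 91.2 ± 12.8 CPM, was not called in blood (log2 fold change -0.10, adjusted p = 0.668) and rose by 0.50 in the tumor (SE 0.16, adjusted p = 0.0188). That call was lost without LLC blood 1 (0.49, adjusted p = 0.0504) or LLC blood 2 (0.43, adjusted p = 0.0734) and with library totals (0.29, adjusted p = 0.0511). The counts of all 4 were divided in all libraries, and the difference between them and the 4 members on chromosome 3 was not tested.

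Other interferon-gamma targets were called in both directions in the tumor, 5 higher and 7 lower of 15 tested, against 0 higher and 3 lower in LLC blood. All genes tested gave 29.6% higher and 31.7% lower in the tumor, and 14% higher and 9.61% lower in LLC blood. Cd274, the gene of PD-L1, was at 22.5 ± 4.93, 17.9 ± 2.20 and 359 ± 55.8 CPM and rose by 4.56 from LLC blood to tumor (log2, SE 0.24, adjusted p = 5.85e-07). Cxcl10, a chemokine for T and NK cells, was at 28.5, 31.4 and 30.0 CPM in healthy blood 1 to 3, 6.50, 3.53 and 3.81 CPM in LLC blood 1 to 3, and 227, 40.1 and 85.1 CPM in LLC tumor 1 to 3. It rose by 5.01 from LLC blood to tumor (SE 0.70, adjusted p = 0.000201). Fcgr1, a high-affinity Fc receptor, rose by 1.53 (SE 0.25, adjusted p = 0.000517). In blood, Cd74, the MHC class II invariant chain, fell by 1.21 (SE 0.26, adjusted p = 0.0102), from 894 ± 160.4 to 393 ± 72.0 CPM. So Cd274, Cxcl10 and Fcgr1, named for the size of their change, rose in the same tumor libraries in which Irf1, Irgm1, Irgm2, Ifi47 and Gbp3 fell. Outside the naming rule, the 7 targets called lower in the tumor went the same way as those members. They were Psmb9 (log2 fold change -0.87), Xaf1 (-0.84), Psmb10 (-0.83), Psmb8 (-0.69), Casp4 (-0.65), Wars (-0.53) and Icam1 (-0.53).

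A list of 15 genes that work with these GTPases, in autophagy and inflammasomes, held 4 lower and 0 higher in LLC blood, and 5 higher and 4 lower in the tumor. The shares of all genes called in either direction, 23.6% in LLC blood and 61.3% in the tumor, were close to those of the list. By direction they were 14% higher and 9.61% lower in LLC blood, and 29.6% higher and 31.7% lower in the tumor. Casp1, the inflammasome protease, fell in both steps, by 0.41 (log2, SE 0.09, adjusted p = 0.0109) and by 1.04 (SE 0.09, adjusted p = 1.32e-05). Gsdmd, the pore-forming protein it cleaves, fell by 0.48 in LLC blood (SE 0.11, adjusted p = 0.0105), and Aim2, a DNA sensor, by 0.41 (SE 0.09, adjusted p = 0.0129). In LLC blood the Casp1 call was lost without healthy blood 3 (adjusted p = 0.0528) and the Gsdmd call without LLC blood 2 or LLC blood 3 (adjusted p = 0.0503 and 0.0549). The Aim2 call was lost without healthy blood 3, LLC blood 2 or LLC blood 3 (adjusted p = 0.0501, 0.0617 and 0.0659). The sensor gene Nlrp3 rose by 1.93 in the tumor (SE 0.22, adjusted p = 5.97e-05) and the autophagy receptor gene Sqstm1 by 1.48 (SE 0.20, adjusted p = 0.000174).

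Of 16 type I interferon-stimulated genes, 2 were lower and 0 higher in LLC blood (median -0.84), and 4 were higher and 3 lower in the tumor (median -0.22). Called in either direction were 23.6% of all genes in LLC blood (14% higher, 9.61% lower) and 61.3% in the tumor (29.6% higher, 31.7% lower). Rsad2, an antiviral enzyme, rose by 3.12 in the tumor (log2, SE 0.58, adjusted p = 0.00124), at 469, 87.8 and 216 CPM in LLC tumor 1 to 3 against 49.0, 28.5 and 31.8 CPM in LLC blood 1 to 3. LLC tumor 1 was the highest tumor library for Rsad2 and Cxcl10, as for 9 of the 10 members. Ifit3 fell by 1.85 in LLC blood (SE 0.57, adjusted p = 0.0451), a call that was lost without any of the blood libraries or without LLC tumor 3. Isg15 rose by 1.44 in the tumor (SE 0.44, adjusted p = 0.0176), which was lost without LLC blood 2 or LLC blood 3. Ifit2 rose by 1.42 (SE 0.53, adjusted p = 0.0404), but was at 0.47 without LLC tumor 1 (adjusted p = 0.175), and 11 of 18 alternatives did not call it. Over the receptor, regulatory factor, GTPase and target lists, 51 of 56 genes were tested. Called were 3 higher and 13 lower in LLC blood, against 14% and 9.61% of all genes. In the tumor 14 were higher and 24 lower, against 29.6% and 31.7% of all genes.

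**Figure D5:**
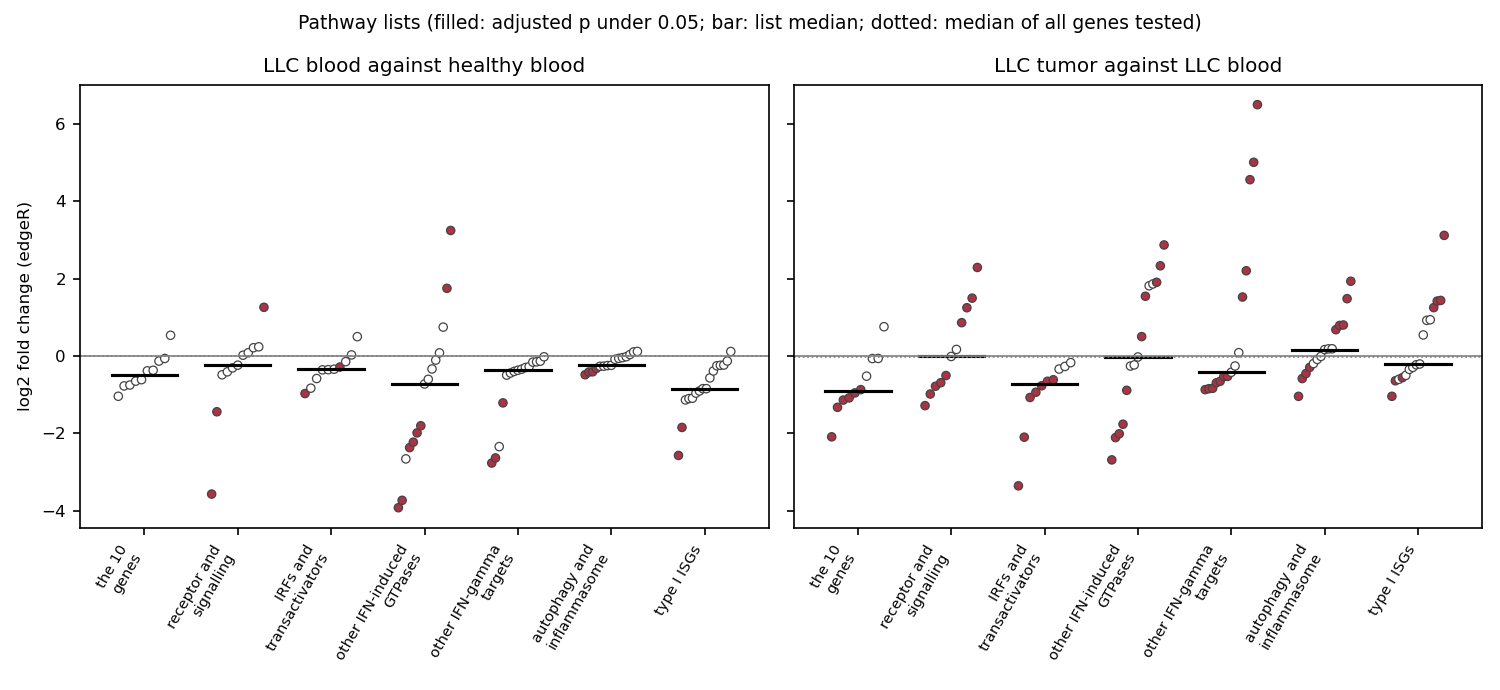
Log2 fold changes (edgeR) of the 10 genes and of 6 lists of related genes, for LLC blood against healthy blood (left) and LLC tumor against LLC blood (right), 1 point per gene tested. Filled points passed an adjusted p of 0.05, bars are list medians and the dotted line is the median of all genes; the medians of the 10 genes are -0.50 and -0.91.

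Markers of other cells also differed between groups, some in the direction of most members and some not. The counts below stand beside shares of 14% called higher and 9.61% lower among all genes in LLC blood. In the tumor against LLC blood these shares were 29.6% higher and 31.7% lower. NK cell markers were called lower for 8 of 9 genes in LLC blood and again for 8 of 9 in the tumor against LLC blood, where Eomes, Klra4, Klra8 and Ncr1 were at or under 3 counts in every tumor library. The T cell marker sum was 39.2, 107 and 169 CPM in healthy blood 1 to 3 but 4.29 to 7.08 CPM in LLC blood, with 8 of 8 tested genes lower. In the tumor they summed to 106 to 134 CPM, of which Il7r alone made up 99.5 to 121 CPM, and Cd3e was at or under 3 counts. The tumor cell, fibroblast and endothelial list was higher in the tumor against LLC blood for 9 of 11 tested genes. Macrophage markers summed to 1306 to 1520 CPM in healthy blood, 731 to 768 CPM in LLC blood (5 of 8 called lower, 0 higher) and 1489 to 2320 CPM in the tumor (6 of 8 higher, 1 lower, against LLC blood). For neutrophil markers the sum was 177 to 359 CPM (healthy blood), 302 to 767 CPM (LLC blood, 4 of 10 called higher) and 170 to 392 CPM (LLC tumor, 5 of 10 lower than in LLC blood). Dendritic cell markers summed to 81.5 to 86.3, 24.7 to 39.5 and 6.32 to 9.93 CPM, with 5 of 6 tested genes lower in LLC blood. The 8 Ly6C-low monocyte markers summed to 3294 to 3312, 3136 to 3792 and 1136 to 1358 CPM in the same order. Of these 8 genes, 1 was called higher and 2 lower in LLC blood, and 2 higher and 6 lower in the tumor. Erythroid markers summed to 222 to 650, 169 to 920 and 1.08 to 3.46 CPM, with 5 of 5 tested genes lower in the tumor. Platelet markers summed to 7.88 to 20.8, 3.64 to 6.90 and 139 to 222 CPM, with 2 of 3 tested genes higher there. The part of these cells in the members' levels was not tested.

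Healthy blood 2 had the highest level of its group for 9 of the 10 members, all but Ifngr1, and LLC tumor 1 for 9, all but Irgm2. The B cell marker sum was 190 CPM in healthy blood 2 and 17.5 and 25.3 CPM in the other healthy libraries, and that of the MHC class II genes, against which the cells were sorted, was 586 CPM beside 277 and 389 CPM. In LLC tumor 1 the tumor cell, fibroblast and endothelial list was lowest, at 985 CPM. Without both libraries, an alternative added after seeing the data, 6 members were called in LLC blood against healthy blood, 5 lower and 1 higher. In LLC tumor against LLC blood, Irf1, Irgm1, Irgm2, Ifi47, Gbp3 and Ifngr1 were still called lower without them, and so were Igtp at -0.94 and Gbp5 at -0.54.

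Among the 6903 genes that averaged 20 CPM or more, those with the profile most like that of Irf1 over the 9 libraries included Epsti1 and Plac8, with a root mean square difference of centred log2 CPM of 0.115 and 0.121. The median over all ranked genes was 0.723. For Igtp they were Rtp4 (0.154), Epsti1 (0.170) and Irf1 itself (0.172), beside a median of 0.667. For Ifngr1 they were other genes, Erp29 (0.0541), Csgalnact2 (0.0661) and Surf1 (0.0686), beside a median of 0.502. The libraries fall into 3 groups, so the measure also counts differences between group means, and it is given as a description.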

How the data were processed

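The authors deposited expected counts (estimated counts per gene, not normalized) for 24411 entries, with 8.56% to 9.73% of values per library not whole. They also deposited CPM values, scaled by the authors to the library total, for 10693 of these genes; 100% were whole reads within 0.05 reads and equalled the rounded counts. Trim Galore, cutadapt 3.4, STAR 2.6.1d, Salmon 1.9.0, edgeR and the build mm10 are listed per the submitters' processing notes, without their roles. The other 22 of the 31 samples (ATAC-seq, CUT&Run and CUT&Tag) were not used here. The BM in the column heads was taken for blood monocyte, since the samples are described so.

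Counts were rounded and fitted with edgeR 4.0.16 (R 4.3.3; TMM, filterByExpr, quasi-likelihood test, group as the only term, all 9 libraries), with Benjamini-Hochberg adjustment over the 12337 genes that passed the filter. The procedure was tested on simulated data. DESeq2 1.42.0, limma 3.58.1 (voom), other scalings, filters and sample sets, each library left out in turn and a replicate block were alternatives, 18 in all. Replicates of a group differed by more than sampling noise. The 10 genes and all lists were chosen with earlier results of these data known. For LLC blood against healthy blood and LLC tumor against LLC blood, of each list the 3 genes with the largest change were named among those called and averaging 20 CPM or more in the compared libraries, with the receptor and signalling genes Ifng, Ifngr2, Jak1, Jak2 and Socs1 added; 1 gene that the rule names is not reported here. Profile likeness used log2(CPM + 0.5). Promoter sequences and coordinates are from RefSeq (GRCm38.p6), and protein sequences were not used here.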

Additional observations from a re-analysis of the deposited data

How the results depend on the processing

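For LLC blood against healthy blood, the count of genes called rose from 2917 (1732 higher, 1185 lower) to 5884 with limma-voom and 4889 with only the 6 libraries compared, and, with each library left out, was lowest at 1494 (LLC blood 2 left out) and highest at 5064 (LLC tumor 1 left out). The 10 members, none called, gave 5 with DESeq2, upper-quartile factors or library totals, 7 with limma-voom or only 6 libraries, 1 without a filter or in the authors' CPM gene set, 6 without healthy blood 2 and LLC tumor 1 together, and 0 to 7 with each library left out. The pathway genes called, 16 of 51, became 25 with upper-quartile factors or library totals, 40 with limma-voom, 38 with 6 libraries, 30 without both libraries, and from 10 (LLC blood 3 left out) to 36 (LLC tumor 1 left out). In the main fit each gene's spread is taken from all 9 libraries together, and the cause of these shifts was not tested. The corresponding counts in both tumor comparisons stayed within 1.5 times. The share of higher among called genes was 59.4% in blood and 46.3% with upper-quartile factors, and 48.3% in LLC tumor against LLC blood and 36.3% with library totals. In that comparison Gbp5 ran from -0.54 to 0.23 and Gbp7 from -0.25 to 0.08 (log2) with each library left out, and Jak1 was -0.04 with library totals. In LLC tumor against healthy blood, Gbp2 was -0.12 with upper-quartile factors, -0.23 with library totals, -0.06 without a filter and in the authors' gene set, -0.64 with limma-voom, -0.01 with 6 libraries, -0.38 without both libraries, and -0.71 to 0.31 with each library left out. With the replicate number as a block, which the labels do not explain and whose same-numbered libraries correlated at -0.113 to 0.340, so that the numbers were not treated as pairs, 2788 genes and none of the members were called in blood and Gbp2 in LLC tumor against healthy blood was -0.10. Ifi47 in LLC tumor against LLC blood was -1.06 (adjusted p = 0.052) with 6 libraries. Among the members' values, 131 of 180 in blood, 167 of 180 in LLC tumor against LLC blood and 161 of 180 in LLC tumor against healthy blood kept their direction and side of the threshold.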
